A study of Sus scrofa with 17 samples.

Results

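The 10 genes described here are known targets of the glucocorticoid receptor, followed through the right ventricular myocardium of 17 pigs. They were picked by name out of the 35670 genes of the deposited table, and none of them stood on more than 1 line of it. The symbol was given for 9 of them, and TSC22D3 was found by its Ensembl identifier. The choice was made with results of these libraries in view. ZBTB16, FKBP5 and CEBPD had been seen with lower values in dosed animals, and vehicle control 4 had been seen to stand high for the first 2, so the values of the 10 genes in the group comparisons are a description and not a test.

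The animals were kept under pressure overload of the right ventricle and randomised to several administrations of umbilical cord blood mononuclear cells (multidose, 7 animals), to a single dose of these cells (single dose, 5 animals) or to vehicle alone (vehicle control, 5 animals). The cells were given into the myocardium, per the series title. All 3 groups carried the overload, and healthy ventricles were not analysed here. The strain, the age, the cell numbers and the time of harvest are not given in the labels, and sex, weight and batch, which the series text names as recorded, are not given per library. Each library is a separate animal.

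Glucocorticoids such as cortisol reach the receptor NR3C1 in the cytoplasm, where heat shock protein 90 and immunophilins hold it ready to bind hormone. With hormone bound, the receptor moves to the nucleus, binds response elements and raises a set of genes within hours, in the heart as in most tissues. Among these targets are proteins that restrain the receptor itself, members of the circadian clock, transcription factors that steer fuel use and genes that dampen inflammation and growth signals.

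Libraries held between 21754800 and 61144663 counts, and 15884 of the 35670 genes had enough counts to be tested, all 10 of these genes among them. The tissue label matched its markers, since 8 of 9 cardiomyocyte genes were found and the sum of these 8 was between 54816 and 74187 CPM (counts scaled to the library total) in multidose, between 55616 and 67684 in single dose and between 41216 and 65905 in vehicle control libraries. A library name starting with M1 was borne by multidose 1 to 4 and single dose 1, and the other 12 libraries, which include all 5 vehicle controls, have names starting with M8 or M9. What these names stand for is not in the labels. The M1 libraries held between 21754800 and 40969168 counts, and the others between 40621934 and 61144663. In tissue RNA, fewer cells of a type and less RNA per cell cannot be told apart.

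FKBP5 (ENSSSCG00000001549, chromosome 7, 31441764 to 31550704, Sscrofa11.1) encodes a co-chaperone that lowers the affinity of the receptor for hormone and is itself raised by the receptor. Its level was between 23.3 and 67.8 CPM in the 7 multidose libraries, with a median of 36.9. It was 21.1, 20.8, 35.2, 32.7 and 34.6 CPM in single dose 1 to 5 and 47.6, 48.2, 64.9, 274.7 and 66.6 CPM in vehicle control 1 to 5. Every single dose library lay below every vehicle control, the multidose libraries reached into the range of the controls, and vehicle control 4 stood far above the rest. The log2 fold change was -1.27 (SE 0.39) for multidose against vehicle control and -1.80 (SE 0.44) for single dose against vehicle control. Without vehicle control 4 these became -0.45 (SE 0.24) and -0.97 (SE 0.26).

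PER1 (ENSSSCG00000017983, chromosome 12, 53361863 to 53376723) encodes a repressor of the circadian clock that the receptor also induces directly. It had a lowest value of 32.5, a median of 53.9 and a highest value of 113 CPM after multiple doses. Values were 28.8, 51.4, 62.1, 38.7 and 35.5 CPM in single dose 1 to 5, against 76.5, 94.4, 90.8, 183 and 89.4 CPM in vehicle control 1 to 5. As with FKBP5, the single dose and control ranges did not meet, and multidose 5 was the only multidose library above the lowest control. The log2 fold change was -0.83 (SE 0.29) for multidose and -1.30 (SE 0.32) for single dose, each against vehicle control, and -0.54 and -1.02 without vehicle control 4.

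TSC22D3 (ENSSSCG00000056590, chromosome X, 88171325 to 88233583) encodes GILZ, a leucine zipper protein that carries part of the anti-inflammatory action of glucocorticoids. It was counted sparsely, with 62 to 374 counts per library. The level was between 2.13 and 5.26 CPM in the multidose group with a median of 2.78, at 3.40, 2.81, 3.52, 4.14 and 3.13 CPM in single dose 1 to 5, and at 3.99, 5.19, 5.56, 4.87 and 2.65 CPM in vehicle control 1 to 5. All 3 groups overlapped, and vehicle control 5 lay below every single dose library. Log2 fold changes were -0.49 (SE 0.22) for multidose and -0.39 (SE 0.24) for single dose against vehicle control. Without vehicle control 4, whose rank for TSC22D3 was 4 of 17, they were -0.45 and -0.35.

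ERRFI1 (ENSSSCG00000035774, chromosome 6, 68667651 to 68682629) encodes a feedback inhibitor of the epidermal growth factor receptor. It was also low, at 38 to 415 counts per library. Multidose libraries ran from 1.703 to 3.51 CPM with a median of 2.92, single dose 1 to 5 had 2.02, 2.29, 2.79, 3.43 and 2.78 CPM, and vehicle control 1 to 5 had 4.75, 2.66, 3.96, 7.78 and 2.77 CPM. Controls 2 and 5 lay within the range of the dosed animals and controls 1, 3 and 4 above it. The log2 fold change was -0.68 (SE 0.26) for multidose and -0.72 (SE 0.28) for single dose against vehicle control, and -0.36 and -0.40 without vehicle control 4.

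Transcription factors made up 4 of the 10 genes. Among them, ZBTB16 (ENSSSCG00000030095, chromosome 9, 41639536 to 41839254) encodes a zinc finger repressor that is strongly raised by glucocorticoids in several tissues. Multidose libraries measured 12.2 to 30.2 CPM with a median of 21.8. Single dose 1 to 5 measured 13.5, 14.4, 29.3, 13.4 and 8.97 CPM, against 21.1, 42.7, 43.1, 97.3 and 43.6 CPM in vehicle control 1 to 5. Vehicle control 1 was the only control inside the range of the dosed animals, and the other 4 lay above all 12 of them. Log2 fold changes against vehicle control were -1.26 (SE 0.34) for multidose and -1.64 (SE 0.38) for single dose, and without vehicle control 4 they were -0.86 (SE 0.31) and -1.24 (SE 0.34).

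CEBPD (ENSSSCG00000032367, chromosome 4, 79872863 to 79874481) encodes C/EBP delta, an acute phase and adipogenic factor. Its level was between 8.42 and 20.3 CPM (median 10.9) in multidose libraries, 13.8, 7.25, 9.29, 11.5 and 16.2 CPM in single dose 1 to 5 and 27.7, 13.1, 9.25, 93.0 and 23.5 CPM in vehicle control 1 to 5. Controls 2 and 3 lay among the dosed animals, controls 1 and 5 somewhat above, and control 4 far above the next highest library. The log2 fold changes of -1.44 (SE 0.43) for multidose and -1.52 (SE 0.48) for single dose against vehicle control stood at -0.58 (SE 0.30) and -0.66 (SE 0.32) without this animal.

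KLF15 (ENSSSCG00000036742, chromosome 7, 53877813 to 53890558), which directs amino acid and lipid use in heart and skeletal muscle, varied widely among the controls. It was between 11.8 and 24.8 CPM with a median of 16.1 after multiple doses, and 13.8, 15.3, 17.9, 14.0 and 12.3 CPM in single dose 1 to 5. Vehicle control 1 to 5 had 7.69, 21.3, 21.7, 64.6 and 42.3 CPM, so that the controls held both the lowest and the highest of the 17 values. Fold changes on the log2 scale were -0.82 (SE 0.35) for multidose and -1.11 (SE 0.38) for single dose against vehicle control, and -0.38 and -0.66 without vehicle control 4.

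KLF9 (ENSSSCG00000021646, chromosome 1, 223723613 to 223747661), a zinc finger factor that many cells raise on contact with glucocorticoid, had overlapping values in all 3 groups. Multidose libraries measured 39.9 to 68.3 CPM (median 46.9), single dose 1 to 5 measured 60.4, 52.8, 54.5, 36.3 and 29.4 CPM, and vehicle control 1 to 5 measured 52.5, 46.2, 53.1, 96.4 and 66.9 CPM. Only vehicle control 4 lay outside the range of the dosed animals. Log2 fold changes against vehicle control were -0.33 (SE 0.20) for multidose and -0.43 (SE 0.22) for single dose, and -0.12 and -0.23 without that library.

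SGK1 (ENSSSCG00000021443, chromosome 1, 29625786 to 29753619) encodes a kinase that regulates ion channels and transporters and is a target of both the glucocorticoid and the mineralocorticoid receptor. It had 12.5 to 28.2 CPM (median 23.5) in multidose libraries, 22.3, 29.4, 29.6, 29.8 and 21.8 CPM in single dose 1 to 5 and 48.6, 23.5, 22.7, 34.6 and 21.0 CPM in vehicle control 1 to 5. Its highest library was vehicle control 1 and its lowest was multidose 5, and 3 of the 5 controls lay among the dosed animals. The log2 fold change was -0.45 (SE 0.21) for multidose and -0.18 (SE 0.22) for single dose against vehicle control, and -0.39 and -0.12 without vehicle control 4. The single dose value of SGK1 turned to 0.06 without vehicle control 1 and to 0.03 with voom quality weights.

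CRISPLD2 (ENSSSCG00000002669, chromosome 6, 3881715 to 3944592) encodes a secreted protein that binds bacterial lipopolysaccharide. Multidose libraries ran from 52.6 to 105 CPM with a median of 66.7. Single dose 1 to 5 had 35.1, 35.02, 39.9, 86.1 and 69.8 CPM, against 103, 73.3, 84.6, 115 and 52.7 CPM in vehicle control 1 to 5. Single dose 1, 2 and 3 were the lowest of the 17 libraries, whereas the multidose values covered nearly the whole control range. Log2 fold changes were -0.25 (SE 0.26) for multidose and -0.69 (SE 0.28) for single dose against vehicle control. Vehicle control 4 was the highest library for CRISPLD2. Over 30 refits with other settings or libraries, a fit without that control among them, the values ran from -0.39 to -0.12 for multidose. For single dose they ran from -0.93 to -0.45.

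**Figure D1:**
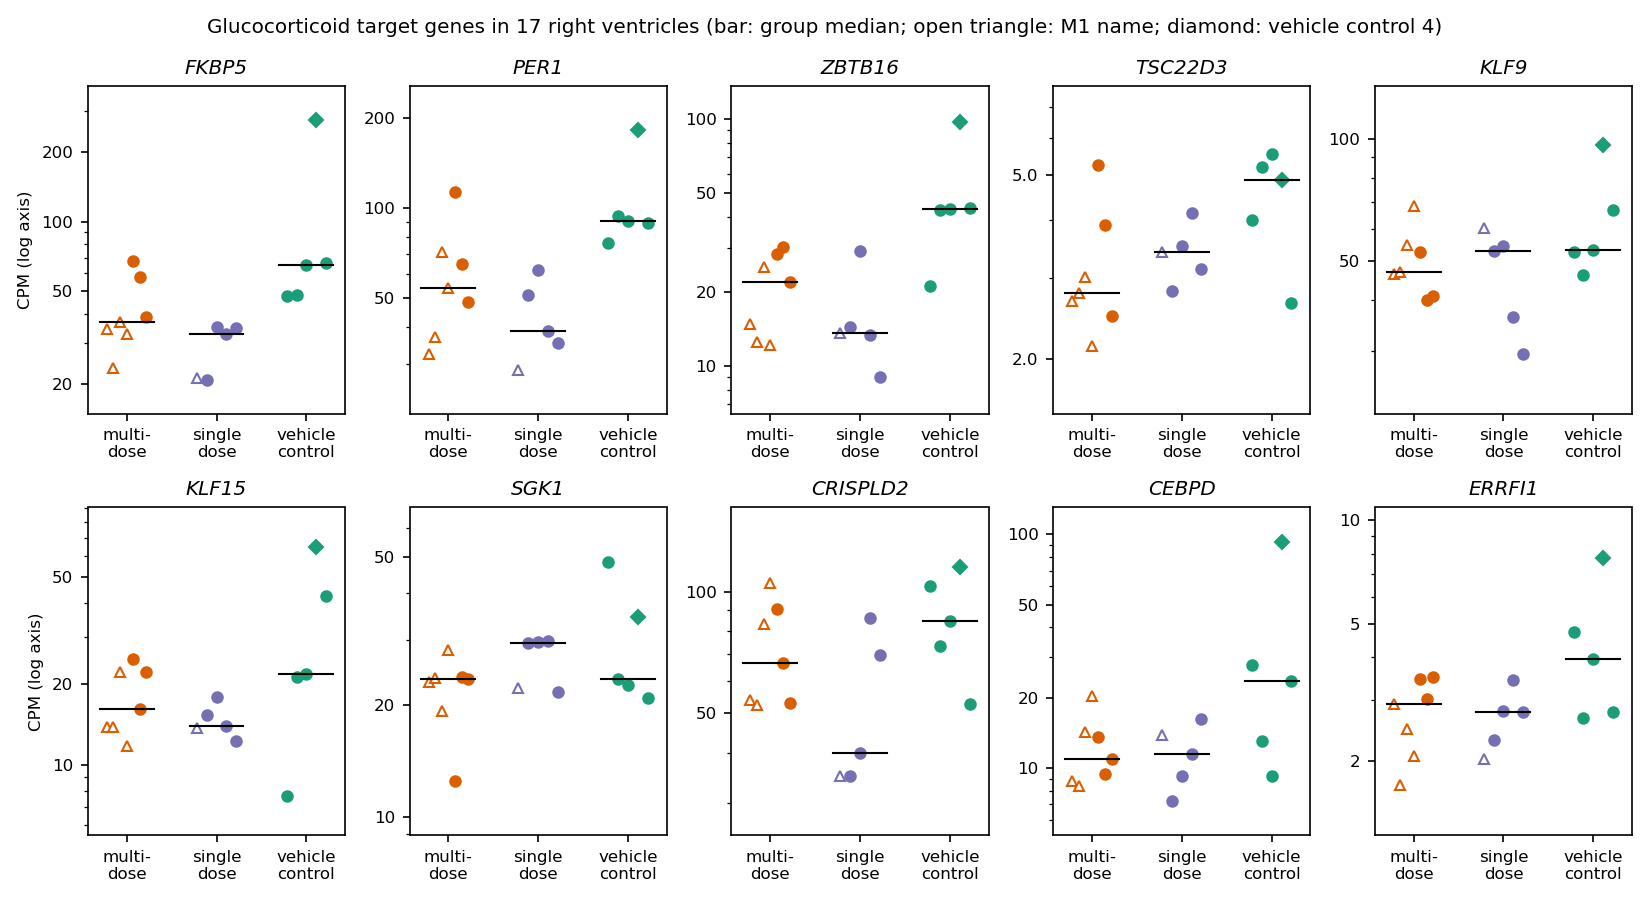
Level of each gene in CPM (log axis) in the 7 multidose, 5 single dose and 5 vehicle control libraries; the bar is the group median, open triangles are libraries with M1 names and the diamond is vehicle control 4. The diamond is the highest of the 17 points for 8 of the 10 genes, at 274.7 CPM for FKBP5, while the ranges of the single dose and control points do not meet for FKBP5 and PER1.

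With a Benjamini-Hochberg adjusted p under 0.05 by edgeR's quasi-likelihood test, 0 of the 10 genes passed in either comparison with the vehicle controls. The share of all tested genes that passed was 0% for multidose against vehicle control and 0% for single dose against vehicle control. At an unadjusted p under 0.05, 8 of the 10 genes had lower values in multidose animals, where 5.83% of all genes did, and 7 of the 10 had lower values in single dose animals, where 2.84% did. Without vehicle control 4 these counts were 1 and 3, with 4.6% and 1.73% of all genes. DESeq2 called 8 genes (0.0504% of those tested) for multidose, 0 of the 10 among them, and 10 genes (0.063%) for single dose, among them FKBP5 and ZBTB16, each with an adjusted p of 0.0406. Because the genes were chosen with these contrasts known, nothing is read from the counts.

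All 10 log2 fold changes were negative in both comparisons, where 50.7% of all genes were negative for multidose and 49.6% for single dose against vehicle control. The median of the 10 was -0.75 for multidose and -0.91 for single dose, and the medians over all genes were -0.01 and 0.00. Both comparisons use the same 5 controls and are not independent of each other. The medians without vehicle control 4 were -0.42 and -0.61, still with 10 of 10 negative, where 50.2% and 49% of all genes were. Ranges that did not overlap were found for 0 of 10 genes between multidose and vehicle control libraries, where 0.126% of all genes lay wholly lower. Between single dose and vehicle control libraries they were found for FKBP5 and PER1, where 0.453% of all genes lay wholly lower. Vehicle control 4 was the highest control for both genes, so leaving it out could not bring their ranges together. The share of all genes was then 0.535%.

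**Figure D2:**
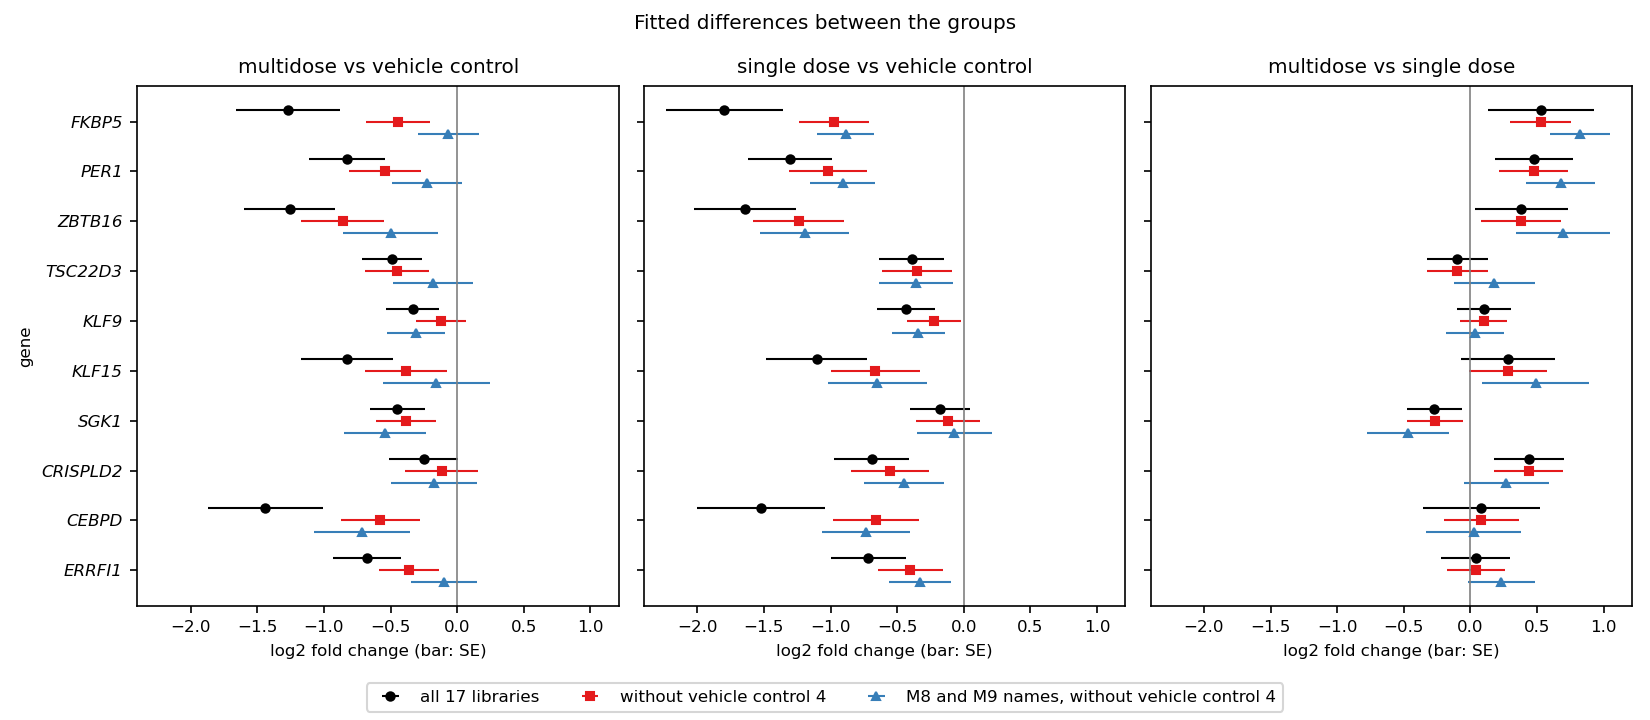
Log2 fold changes (points) with their standard errors (bars) for the 10 genes in 3 comparisons, fitted to all 17 libraries, without vehicle control 4, and to M8 and M9 names without vehicle control 4. In both comparisons with vehicle control all points lie below 0, and those for CEBPD and FKBP5 move furthest toward 0 once vehicle control 4 is left out.

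The M1 names fall on dosed animals alone, so the comparisons with control were repeated on the M8 and M9 libraries without vehicle control 4 (3 multidose, 4 single dose and 4 control animals). For multidose against vehicle control FKBP5 stood at -0.07, PER1 at -0.23, ZBTB16 at -0.50 and CEBPD at -0.71, with a median of -0.20 over the 10 genes. For single dose against vehicle control FKBP5 stood at -0.89, PER1 at -0.91, ZBTB16 at -1.19 and CEBPD at -0.74, with a median of -0.55. Adjusted p-values by edgeR were 0.999 or higher for all 10 genes in both comparisons.

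The direct comparison of the dosing groups shares no control. Over all 17 libraries the fold change of multidose against single dose was above 0 for 8 of the 10 genes and below 0 for TSC22D3 (-0.10, SE 0.23) and SGK1 (-0.27, SE 0.21), where 49.5% of all genes were below 0. The largest differences were 0.53 (SE 0.40) for FKBP5, 0.48 (SE 0.29) for PER1, 0.44 (SE 0.26) for CRISPLD2 and 0.38 (SE 0.35) for ZBTB16 on the log2 scale. The 95% interval included 0 for all 10 genes, for example -0.31 to 1.37 for FKBP5 and -0.14 to 1.09 for PER1. Both of these intervals leave room for a difference of more than 2-fold. None of the 10 genes passed the test (0% of all genes passed), and 0 of 10 had an unadjusted p under 0.05 (2.11% of all genes). In the M8 and M9 libraries the values were 0.82 for FKBP5, 0.68 for PER1 and 0.70 for ZBTB16, with a median of 0.25 over the 10 genes. Of the 10, 1 was below 0 there, where 51% of all genes were. By edgeR 0 of 10 had an unadjusted p under 0.05 in these libraries (2.58% of all genes). With vehicle control 4 also left out 2 of 10 did (2.93% of all genes).

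Between the library names, with the dosing group held in the fit, 7 of the 10 genes were lower in M1 libraries, where 51.4% of all genes were. FKBP5 stood at -0.71 (SE 0.40), PER1 at -0.66 (SE 0.28), ZBTB16 at -0.59 (SE 0.36) and ERRFI1 at -0.52 (SE 0.26), whereas KLF9 (0.35, SE 0.20), CEBPD (0.24, SE 0.49) and SGK1 (0.08, SE 0.24) were above 0. With all libraries 0 of 10 passed in either direction, although 14% of all genes did, 5.92% higher and 8.06% lower. Without vehicle control 4 the estimate for FKBP5 hardly changed (-0.70) but its SE became 0.18, and FKBP5 passed (adjusted p = 0.0183 by edgeR), where 14.4% of all genes passed. Marker sums moved with the names too. The sum of 6 T and natural killer cell markers was 8.43 to 13.0 CPM in M1 libraries and 13.3 to 46.8 CPM in the others, without overlap. That of 7 fibroblast markers was 4550 to 8217 CPM (median 7612) in M1 libraries and 2802 to 6512 CPM (median 3937) in the others, and no marker of either list was at 0 in any library. The part of these cell types in the differences between names, here and in the lists that follow, was not tested. The part of sequencing depth, which in 4 of the 5 M1 libraries was below that of every other library, was not tested.

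Within the multidose group the split of names can be seen directly. FKBP5 was at 34.3, 23.3, 36.9 and 32.8 CPM in the 4 M1 libraries and at 67.8, 57.6 and 38.8 CPM in the 3 libraries with M8 or M9 names. ERRFI1 was at 2.92, 1.703, 2.47 and 2.06 CPM in the M1 libraries and at 3.45, 3.03 and 3.51 CPM in the 3 others. For these 2 genes the name groups did not overlap, and 11.9% of all genes lay wholly lower in the M1 libraries of this group. Over all 12 dosed animals the M1 and M8 or M9 ranges overlapped for each of the 10 genes, where 5.12% of all genes lay wholly lower.

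Vehicle control 4 was the highest of the 17 libraries for FKBP5, PER1, ZBTB16, KLF9, KLF15, CRISPLD2, CEBPD and ERRFI1. That is 8 of the 10 genes, where it was highest for 8.96% of all tested genes. Its rank was 2 for SGK1 and 4 for TSC22D3. Its height had been seen for FKBP5 and ZBTB16 when the genes were chosen, so the count is a description.

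Relative to the mean of the other 4 controls, CEBPD was higher in vehicle control 4 by 2.47 on the log2 scale (5.54-fold) and FKBP5 by 2.29 (4.89-fold). KLF15 was higher by 1.71, ZBTB16 by 1.43, ERRFI1 by 1.17 and PER1 by 1.07. The smaller differences were 0.83 for KLF9, 0.60 for CRISPLD2, 0.35 for SGK1 and 0.22 for TSC22D3. The median of the 10 was 1.12, against 0.00 over all genes, and 6 of the 10 were at least 2-fold above that mean, against 3.62% of all genes. Among all tested genes, 0.277% had a larger difference than CEBPD and 0.409% a larger one than FKBP5. This control held 56650464 counts, within the range of the other controls of 48311031 to 61144663.

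**Figure D3:**
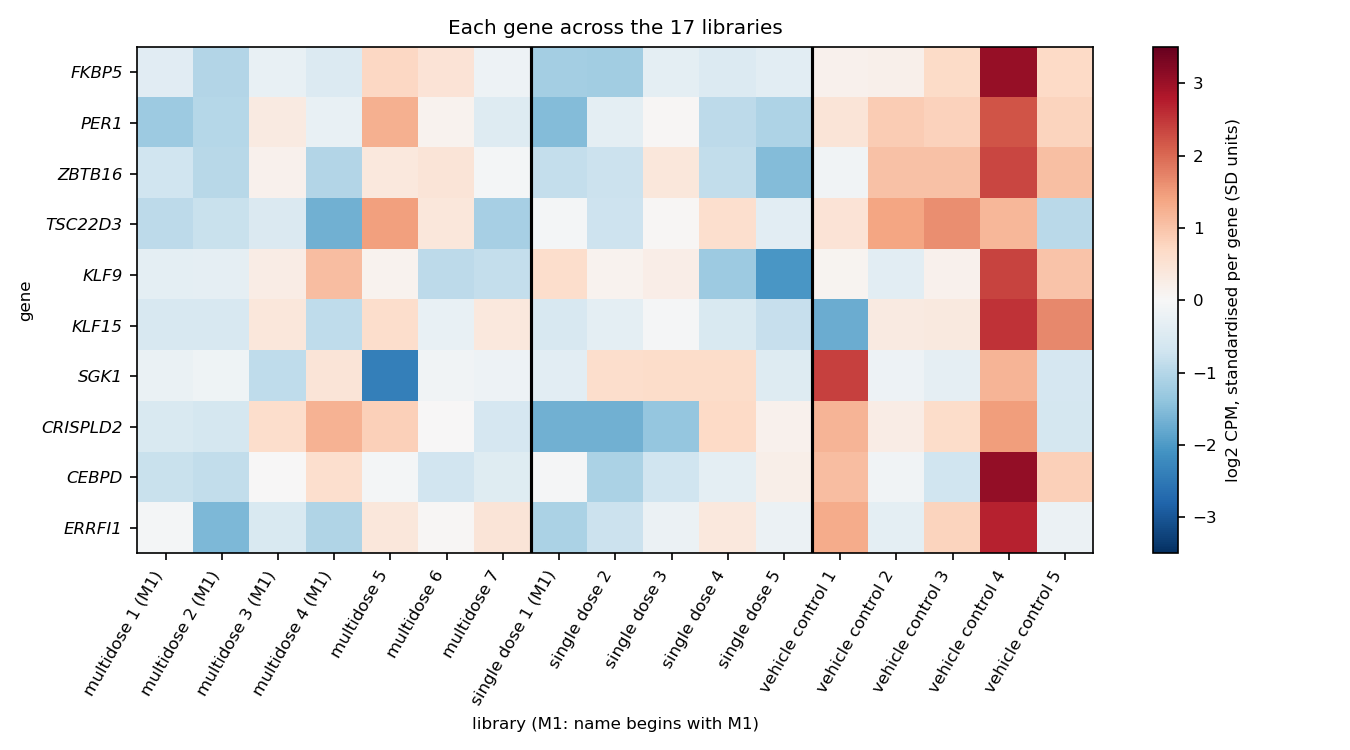
Log2 CPM of each gene in the 17 libraries, centred and scaled per gene in SD units (red above, blue below the mean of that gene), with lines between the multidose, single dose and vehicle control libraries. Vehicle control 4 is the darkest red column, and SGK1 instead has its highest value in vehicle control 1 and its lowest in multidose 5.

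No other library stood at an extreme for so many of the genes. Vehicle control 1 was highest for SGK1 and lowest for KLF15, vehicle control 3 was highest for TSC22D3, single dose 2 was lowest for 3 genes (FKBP5, CRISPLD2 and CEBPD) and single dose 5 was lowest for 2 (ZBTB16 and KLF9). The SD of log2 CPM over the 17 libraries had a median of 0.63 over the 10 genes and 0.35 over all tested genes. These medians were 0.54 and 0.35 over the 16 libraries without vehicle control 4.

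Cell type markers were read beside these values. Among the neutrophil markers, 3 of 5 were found (S100A8, S100A12 and CSF3R), and their sum was 0.688 to 2.04 CPM in multidose, 0.703 to 5.90 in single dose and 0.818 to 3.54 CPM in the other vehicle controls, but 11.9 CPM in vehicle control 4. S100A8 was at 0 in 5 of the 17 libraries. The sum of 6 macrophage markers was also highest in vehicle control 4, at 533 CPM, with 227 to 411 CPM in multidose, 231 to 362 in single dose and 213 to 453 CPM in the other controls. CD163, a scavenger receptor that is both a macrophage marker and a glucocorticoid target, made up 207 CPM of it. Without CD163 the sum was 326 CPM and ranked 5 of 17. The sum of 8 cardiomyocyte markers was 58552 CPM in this control and ranked 12 of 17, and that of 5 mural cell markers, at 450.4 CPM, was the lowest of the 17. That of 6 T and natural killer cell markers was 13.3 CPM there, against 20.6 to 46.8 CPM in the other controls. The sum of 7 fibroblast markers, at 3519 CPM, ranked 16 of 17. The part of these cell types in the values of the 10 genes was not tested.

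Not all of the 10 genes followed each other across animals. Over the 17 libraries, the Pearson correlation of a gene with the mean of the other 9, each standardised on log2 CPM, was 0.93 for FKBP5, 0.87 for PER1, 0.83 for ZBTB16, 0.80 for ERRFI1 and 0.74 for CEBPD (Spearman's rho 0.81, 0.87, 0.70, 0.55 and 0.42). It was 0.60 for KLF15, 0.54 for KLF9, 0.53 for CRISPLD2, 0.47 for TSC22D3 and 0.12 for SGK1. The values of 1 library share its scaling factor and its depth, and no p-value is attached.

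With vehicle control 4 left out the correlations of PER1 (0.86), FKBP5 (0.83) and ZBTB16 (0.74) remained high, while those of CEBPD (0.33), KLF15 (0.23) and KLF9 (0.15) were low and that of SGK1 was -0.19. Over the 15 libraries left after the 2 with the most extreme mean of the 10 genes were removed (vehicle control 4 and multidose 2), PER1 stood at 0.85, FKBP5 at 0.81 and ZBTB16 at 0.71. Over the 11 M8 and M9 libraries without vehicle control 4, PER1 stood at 0.80, FKBP5 at 0.80, ZBTB16 at 0.68, KLF9 at 0.45, CEBPD at 0.34 and KLF15 at 0.10. The correlation of KLF9 thus differed with the libraries used, and those of CEBPD and KLF15 were below 0.5 in each set without vehicle control 4. Of the 45 pairs of genes, 26 had a correlation above 0.5 over 17 libraries and 12 over the 16 without that control.

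Genes outside the 10 whose level was most like theirs were ranked by the correlation of their log2 CPM with the mean standardised value of the 10. Over the 17 libraries these were ARRDC2 (0.92), ETS2 (0.90), ITPKC (0.89), HYAL2 (0.88), ACKR3 (0.88), USP43 (0.87), FOSL2 (0.87), GALNT15 (0.87), LRRC32 (0.87) and CHKA (0.87). In vehicle control 4, ARRDC2, which encodes an arrestin-domain protein, reached 117.95 CPM, where the remaining 16 libraries had 14.7 to 41.7 CPM, and GALNT15 reached 74.1 CPM, where they had 2.13 to 11.8 CPM. Spearman's rho was 0.78 for ARRDC2, 0.82 for ETS2 and 0.60 for HYAL2. Over the 16 libraries without vehicle control 4 the order was BRD1 (0.85), SMAD7 (0.84), TCOF1 (0.84), CPT1A (0.83), ETS2 (0.83), SKI (0.82), PLXNA2 (0.82), USP43 (0.82), WSCD1 (0.82) and SERPINB9 (0.82). Only ETS2, which encodes a transcription factor, and USP43, which encodes a deubiquitinase, were on both lists of 10. The first 10 genes had correlations of 0.65 (HYAL2) to 0.83 (ETS2) over these 16 libraries, where the median over all genes was 0.00. They were picked for a high correlation over 17 libraries that include these 16, so high values here are in part built in.

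NR3C1, the gene of the receptor itself, was between 45.9 and 66.5 CPM in multidose libraries with a median of 59.9. It was 67.1, 56.1, 55.2, 55.5 and 48.9 CPM in single dose 1 to 5 and 49.4, 45.8, 65.9, 37.9 and 56.0 CPM in vehicle control 1 to 5. Its lowest library of the 17 was vehicle control 4, the library in which most of the target genes were highest. Against vehicle control, multidose stood at 0.22 (SE 0.13, edgeR adjusted p = 0.472) and single dose at 0.15 (SE 0.14, edgeR adjusted p = 0.893) on the log2 scale. Both turned to -0.01 in the M8 and M9 libraries without vehicle control 4.

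Of the 14 genes for the receptor, its hormone-converting enzymes, chaperones and cofactors, 0 passed in any group comparison, and the medians were -0.07 for multidose and -0.14 for single dose against vehicle control. Between library names NCOR1, a corepressor gene, was the only gene of the 14 that passed, where 14% of all genes did. It measured 41.7 ± 2.61 CPM in M1 libraries (SD, n = 5) and 63.8 ± 12.2 CPM in the others (SD, n = 12), a log2 difference of -0.59 (SE 0.14, edgeR adjusted p = 0.0131). In vehicle control 4, 3 of the 14 were the highest of the 17 libraries, where 8.96% of all genes were. In the same library 2, NR3C1 and HSD11B2, were the lowest, where 8.55% of all genes were.

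A second list held 32 other glucocorticoid target genes, of which 29 were found and 27 tested. Their log2 fold changes were negative for 22 of 27 genes in each comparison with vehicle control, where 50.7% (multidose) and 49.6% (single dose) of all genes were. The medians were -0.34 for multidose and -0.28 for single dose, and 0 passed. In the fits that left vehicle control 4 out, 18 and 16 of the 27 were negative, where 50.2% and 49% of all genes were. The medians were then -0.06 and -0.09. Vehicle control 4 was the highest library for 18 of the 27 (66.7%), against 8.96% of all tested genes. Their median difference from the other controls was 0.73 on the log2 scale.

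PDK4, the kinase gene that turns off pyruvate oxidation, had the largest fold changes of this list. It was at 10.1 to 123 CPM (median 17.9) in multidose libraries, 17.1, 9.40, 39.4, 66.1 and 30.0 CPM in single dose 1 to 5 and 98.8, 42.7, 66.9, 602 and 74.0 CPM in vehicle control 1 to 5. Its log2 values were -1.94 (SE 0.74, edgeR adjusted p = 0.372) for multidose and -2.45 (SE 0.85, edgeR adjusted p = 0.891) for single dose against vehicle control. With that control left out these were -0.61 and -1.11, and in the M8 and M9 libraries without it 0.31 and -0.96. Between names PDK4 stood at -2.07 (SE 0.68, adjusted p = 0.0552).

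DDIT4, an inhibitor of mTOR signalling, was between 21.7 and 51.4 CPM in the 12 dosed animals, and at 55.1, 41.3, 31.8, 172 and 37.8 CPM in vehicle control 1 to 5. CD163 was between 14.1 and 44.2 CPM in dosed animals and at 41.6, 23.8, 21.1, 207 and 40.2 CPM in the controls. HIF3A, a hypoxia-inducible factor subunit, was between 0.986 and 5.50 CPM in dosed animals and at 2.46, 2.04, 2.63, 13.1 and 3.27 CPM in the controls. For each of these 3 genes vehicle control 4 was at more than 2-fold the next highest library. Fold changes of multidose against vehicle control were -1.05 for DDIT4, -1.12 for CD163 and -1.01 for HIF3A on the log2 scale, and -0.34, -0.04 and -0.15 without that control. FOXO3, a transcription factor gene of the insulin pathway, had a value of -0.62 for single dose against vehicle control (SE 0.21, adjusted p = 0.891 by edgeR) and of -0.45 without vehicle control 4.

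**Figure D4:**
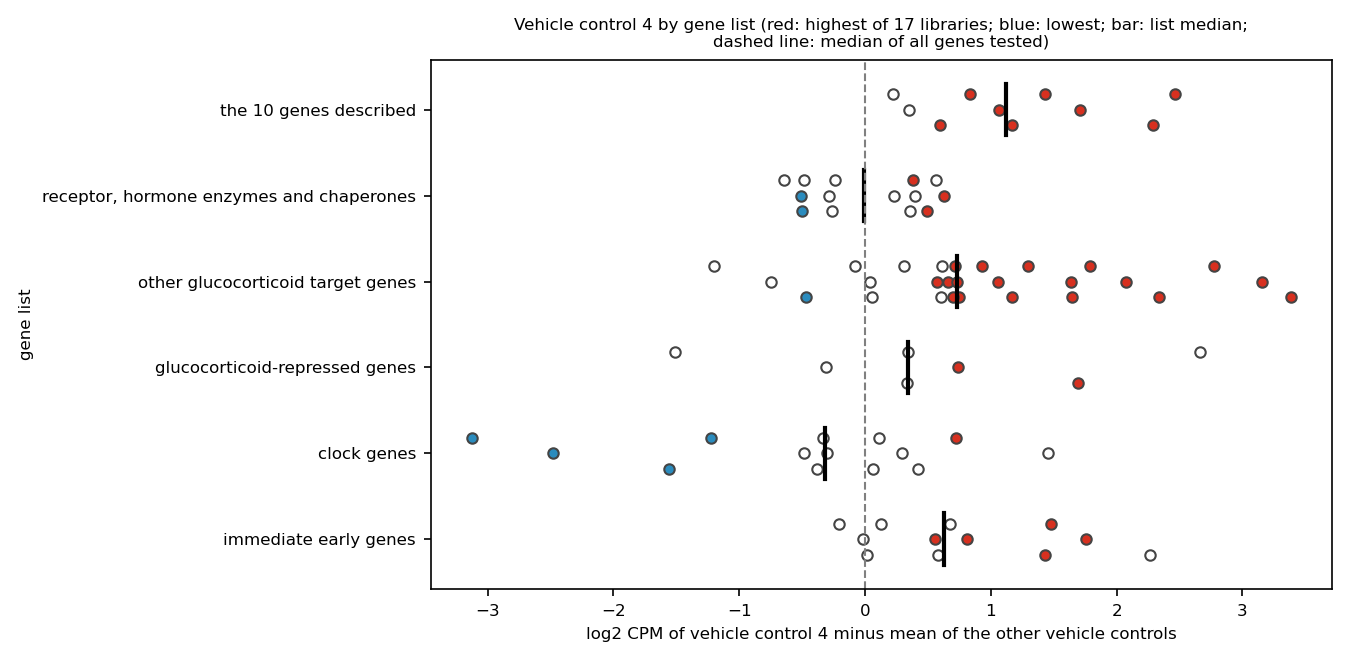
Log2 CPM of vehicle control 4 minus the mean of the other 4 vehicle controls for each tested gene of 6 lists (points), with list medians (bars) and the median of all genes (dashed line); red marks genes for which this control is the highest of 17 libraries and blue those for which it is the lowest. The medians are 1.12 for the 10 genes and 0.73 for the other targets, and most of the red points fall in these 2 lists. The immediate early genes have a median of 0.63, and 5 of the 12 are red.

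Between library names 3 of the 27 other targets passed, 2 higher and 1 lower, no larger a share than the 14% of all genes. THBD, the thrombomodulin gene, rose to 33.3 ± 10.9 CPM in M1 libraries (SD, n = 5), against 17.4 ± 2.67 CPM in the others (SD, n = 12), a log2 difference of 0.97 (SE 0.20, edgeR adjusted p = 0.00637). SESN1, a stress-induced regulator of mTOR, rose by 0.65 (SE 0.14, adjusted p = 0.00816). PTGDS, a prostaglandin D synthase gene, fell to 57.2 ± 25.8 CPM in M1 libraries, against 158 ± 73.5 CPM in the others, by 1.55 (SE 0.42, adjusted p = 0.0243). Without single dose 1, the only M1 library outside the multidose group, THBD still passed (adjusted p = 0.0106), and SESN1 (0.0740), PTGDS (0.0585) and NCOR1 (0.0658) did not.

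Clock genes other than PER1 were 14 in number, and 0 passed in any group comparison. Their medians were -0.11 for multidose and -0.19 for single dose against vehicle control. NR1D2 had a log2 fold change of 0.55 (SE 0.17) for multidose against single dose, and BHLHE40 of -0.40 (SE 0.16) and -0.37 (SE 0.18) for multidose and single dose against vehicle control. Between library names 1 of the 14 passed, again with 14% of all genes as background. It was NR1D1, which encodes the clock repressor REV-ERB alpha and fell by 1.29 in M1 libraries (SE 0.32, adjusted p = 0.0164 by edgeR). Without single dose 1, where NR1D1 was at 6.58 CPM, its adjusted p was 0.0950.

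Of the genes that glucocorticoids are known to repress, 7 were tested and 0 passed in any comparison, with medians of -0.08 for multidose and -0.43 for single dose against vehicle control. ICAM1, an adhesion receptor gene, had a value of -0.58 (SE 0.22) for single dose against vehicle control. Its highest library was vehicle control 4, at 34.0 CPM, against 16.1 to 31.2 CPM in the other controls. Of 12 immediate early genes, which respond within minutes to stress or handling, 0 passed in any comparison over the 17 libraries. For multidose against vehicle control 10 were negative (median -0.36), where 50.7% of all genes were. For single dose against vehicle control 6 were negative (median -0.03), where 49.6% of all genes were. Without vehicle control 4 the negative genes were 10 (median -0.21) and 2 (median 0.10), where 50.2% and 49% of all genes were negative. ZFP36, which encodes an mRNA decay factor, reached 89.1 CPM in vehicle control 4, where the remaining controls had 29.5 to 41.6 CPM. This control was the highest library for 5 of the 12 immediate early genes (41.7%), against 8.96% of all tested genes. Their median difference from the other controls was 0.63 on the log2 scale. Whether genes of this list are themselves raised by glucocorticoids was not tested.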

How the data were processed

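RNA from right ventricular tissue was extracted with TRIzol and sequenced on an Illumina NextSeq 2000, per the labels' protocols. The deposited values are raw counts per Ensembl gene. The submitters' processing notes name the build Sscrofa11.1 and the tools Subread 1.6.2, SAMtools 1.7, HISAT2 2.1.0, Trimmomatic 0.33 and FastQC 0.11.7. Neither the use of strand nor the release of the annotation is given in the sources used here, so reads of a gene and an antisense partner cannot be told apart. Gene positions were taken from RefSeq (build Sscrofa11.1) by symbol.

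The tests were run with edgeR 4.0.16 under R 4.3.3: filterByExpr by group, TMM scaling, 1 coefficient per group over 17 libraries, robust quasi-likelihood tests (two-sided) and Benjamini-Hochberg adjustment over 15884 genes at 0.05. The name comparison added a coefficient for M1 names. CPM use TMM-scaled totals, and log2 CPM carry a prior count of 2. SE were derived from the fold change and its F statistic. The pipeline was tested on simulated data. Libraries held 21754800 to 61144663 counts.

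Alternatives were RLE and upper-quartile scaling, 2 other filters, no robust spread, DESeq2 1.42.0, voom with quality weights of limma 3.58.1, covariates for the name suffix _R and for M1 names, subsets of libraries, a block by replicate number and leaving out each library. The 10 genes, the lists and the naming rule were chosen with earlier results of these data known. Named beside the 10 genes are the 4 genes of a list with the smallest p in a comparison, those most like the 10 genes, and the 10 nearest genes by correlation among those with a mean of at least 1 CPM. Of the genes this rule names, 1 is not reported here.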

Additional observations from a re-analysis of the deposited data

Results flagged for a closer look

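Within a group of 5 or 7 libraries, 81 sets of values of named genes were examined for 1 library far from the rest by Dixon's 95% criterion, which chance meets for about 1 in 20 groups, and 8 met it. The height of FKBP5 in vehicle control 4 had been seen when the genes were chosen, and the 81 sets share the same libraries. That rate therefore does not hold here, and the 8 sets are a description. In vehicle control 4 these were FKBP5 at 8.10 log2 CPM (the remaining controls lay at 5.58 to 6.06), PER1 at 7.52 (6.26 to 6.56) and HIF3A at 3.72 (1.06 to 1.73). NCOR1 stood out in vehicle control 3 at 6.62, against 5.83 to 6.06. In the multidose group FOXO3 was at 6.57 and ICAM1 at 4.96 log2 CPM in multidose 5, against up to 6.07 and up to 4.35 in the other 6 libraries. NR3C1 was at 5.52 in multidose 6, against 5.84 to 6.06 in the others of its group. ZFP36 was at 5.75 in single dose 1, an M1 library, against 4.89 to 5.06 in the other single dose libraries.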

How the results depend on the processing

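Fold changes of the 10 genes kept their sign in 300 of 300 recomputed values for multidose against vehicle control, 298 of 300 for single dose against vehicle control (both exceptions were SGK1), 286 of 300 for multidose against single dose and 280 of 290 between library names. These values come from refits of mostly the same libraries and are not independent. Their size varied, and FKBP5 for multidose against vehicle control, at -1.27 over all libraries, ran from -1.45 to -0.07. DESeq2 called 8 genes for multidose and 10 for single dose against vehicle control, where edgeR called 0 (1997 and 836 genes at an unadjusted p under 0.05), and 2 of the 10 genes (FKBP5 and ZBTB16) for single dose. Between names, edgeR called 2220 genes, voom called 4553, a fit without the group 3783, multidose libraries alone 712, and the libraries with the suffix _R, which hold only 1 M1 library, 0. Other glucocorticoid targets called between names numbered 3, with 8 under voom, 8 without the group and 0 within the suffix _R. With the suffix as a covariate 1 of the 10 genes, TSC22D3, passed. Leaving out 1 library at a time gave 858 to 2745 genes between names, 0 to 1 of the 10 genes (FKBP5 without vehicle control 4) and 1 to 5 other targets. It gave 0 to 1 genes for single dose against vehicle control and for multidose against single dose. Only 2 of the 10 nearest genes were shared without vehicle control 4. In the M8 and M9 libraries without vehicle control 4 the signs turned for PDK4 (0.31), HIF3A (0.34) and NR3C1 (-0.013) in multidose and for NR3C1 (-0.015) in single dose, and the cause was not tested. Of 15 same-numbered pairs of libraries, 4 had correlated deviations above 0.1 (-0.22 to 0.41) and 2 correlated best with their own number. Such correlations cannot show whether the replicate numbers pair the animals. With a replicate block, 1 gene was called for multidose against vehicle control, 11 genes and 0 other targets between names, and 0 of the 10 genes in any comparison. TSC22D3 and ERRFI1 had counts under 500 in every library. Their SE against vehicle control were nonetheless smaller than those of FKBP5 and CEBPD.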

Other observations

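Clock genes other than PER1 split in vehicle control 4, and the genes named here were chosen after their values were seen. This control was the lowest of the 17 libraries for 4 of the 14 (28.6%), where it was lowest for 8.55% of all tested genes. DBP, a clock output factor, was at 0.975 CPM in vehicle control 4, against 7.84 to 10.4 CPM in the other controls. PER2, the paralogue of PER1, was at 4.65 CPM, against 7.72 to 20.1 CPM, and BHLHE41, a clock repressor, at 2.06 CPM, against 7.99 to 21.1 CPM. TEF, a factor related to DBP, was at 31.0 CPM, against 50.5 to 118.3 CPM. BMAL1, the activator of the loop, was at 8.44 CPM, against 2.32 to 4.47 CPM in the other controls, and was higher only in single dose 1, at 8.88 CPM. PER1 and PER2 thus stood at opposite ends in 1 animal, at 183 and 4.65 CPM. The hour of harvest is not given in the labels, and its part in these values was not tested.

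MT1A, a metallothionein gene, had the largest difference among the other glucocorticoid targets in vehicle control 4, at 3.37 CPM, against 0.155 to 0.497 CPM in the other controls. CXCL10, an interferon-induced chemokine gene that glucocorticoids are known to repress, was also high there, at 227 CPM, against 21.4 to 65.8 CPM. Its rank in vehicle control 4 was 2 of 17, so a dosed library was higher. Of the 7 tested genes of the repressed list, 2 were highest in this control (28.6%), against 8.96% of all tested genes. The median difference of that list was 0.34 on the log2 scale, and TNF (-1.51) and VCAM1 (-0.31) were lower there.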
